A study of Mus musculus with 8 samples.

Results

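The oxidative phosphorylation subunits are the nuclear-encoded proteins of respiratory chain complexes I to IV, cytochrome c and the ATP synthase. They were taken as every gene whose symbol starts with Nduf a, b, c, s or v and a digit, Sdha to Sdhd, Uqcr, Cyc1, Cycs, Cox4 to Cox8 or Atp5, among probe sets with a single gene symbol. This gave 83 of 18193 genes on the array, with 169 probe sets, and each gene was read from its probe set with the highest mean signal. Of the 83 genes, 79 passed the filter on low signals and were tested: 32 of complex I, 4 of complex II, 9 of complex III, 16 of complex IV, 17 of complex V (the ATP synthase) and the carrier cytochrome c. The other 4, Ndufb4, Ndufa4l2, Cox7b2 and Cox8b, had mean log2 signals of 4.79, 5.31, 2.34 and 3.63, below the filter level of 5.37. Subunits encoded by mitochondrial DNA fall outside the rule.

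The chain passes electrons from NADH (complex I) and succinate (complex II) through ubiquinone to complex III, cytochrome c and complex IV, where oxygen is reduced. The proton gradient that complexes I, III and IV build drives the ATP synthase. Several complex IV subunits exist as a ubiquitous form and a form restricted to muscle, testis or other tissues. Reprogramming to pluripotency is known for a shift of energy metabolism toward glycolysis.

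The cells were mouse cells of C57BL/6 background in a secondary OSKM system, that is, cells carrying Oct4, Sox2, Klf4 and Myc transgenes that doxycycline switches on. All groups were kept in embryonic stem cell medium with 15% serum, doxycycline, labelled as 2 mg per ml, and leukemia inhibitory factor at 100 units per ml. The 4 groups were CSA at day 6, DMSO at day 6, CSA at day 3 and DMSO at day 3, where CSA, labelled as 10 mM, is cyclosporin A, an inhibitor of the phosphatase calcineurin and so of NFAT transcription factors, and DMSO is its solvent. Each group had 2 arrays, called independent biological repeats in the design text, and the series asked which genes respond to blocking calcineurin and NFAT at each day. The labels do not name the cell type the reprogramming cells came from or the promoters of the transgenes.

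The values are log2 MAS5 signals, used as deposited, and the 8 arrays limit the precision of every comparison. Correlations over the tested probe sets were 0.968 to 0.974 within groups and 0.918 to 0.943 between days, so no array stood apart from its group. All 6 fibroblast markers and all 4 epithelial markers were at or above the filter level in every group. The fibroblast markers were higher at day 6, 5 of 6 past the threshold with CSA and 6 with DMSO: their summed log2 signal was 13.95 in CSA and 14.37 in DMSO at day 6, against at most 12.59 in CSA and 12.26 in DMSO at day 3. Of 7 pluripotency markers, 6 were at or above that level in CSA and 5 in DMSO at day 6, against 5 in CSA and 3 in DMSO at day 3. A fall of a transcript in such mixed cultures can mean fewer cells that carry it or less of it per cell, and these cannot be told apart here. A log2 difference below is day 6 minus day 3 or CSA minus DMSO, with limma's moderated standard error after ±. Calls are limma adjusted p-values under 0.05 over all 27022 tested probe sets. Levels of different probe sets are not compared, because a probe set's signal depends on its probes as well as on its transcript.

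The start-site regions of 4 genes are printed because these genes carry the main results: Cox6b2, the tested subunit with the largest CSA difference, its ubiquitous partner Cox6b1, and Cycs and Ndufb6, which were much lower at day 6. They are RefSeq windows on GRCm38.p6, 250 bases before to 50 bases after the start, from the minus strand of chr7:4753045-4753344, chr7:30626065-30626364, chr6:50566520-50566819 and chr4:40279372-40279671, in that order, and hold promoter and first-exon sequence. Capitals mark exact matches, on either strand, to the core GCGCATGC of NRF1 (reverse complement GCATGCGC), CCGGAAG of GABPA (CTTCCGG) or AAGATGGC of YY1 (GCCATCTT), factors known to act on respiratory chain genes.
Cox6b2: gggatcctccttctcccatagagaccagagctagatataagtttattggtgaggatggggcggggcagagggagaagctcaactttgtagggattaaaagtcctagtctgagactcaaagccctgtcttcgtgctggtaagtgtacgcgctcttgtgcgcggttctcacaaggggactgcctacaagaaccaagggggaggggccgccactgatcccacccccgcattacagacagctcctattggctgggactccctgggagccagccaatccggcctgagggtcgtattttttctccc
Cox6b1: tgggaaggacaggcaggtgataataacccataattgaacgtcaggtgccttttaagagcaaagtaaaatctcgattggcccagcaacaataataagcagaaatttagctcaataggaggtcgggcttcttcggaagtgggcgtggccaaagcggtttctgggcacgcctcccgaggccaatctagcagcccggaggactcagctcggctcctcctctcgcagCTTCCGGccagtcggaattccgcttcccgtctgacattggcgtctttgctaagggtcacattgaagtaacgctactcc
Cycs: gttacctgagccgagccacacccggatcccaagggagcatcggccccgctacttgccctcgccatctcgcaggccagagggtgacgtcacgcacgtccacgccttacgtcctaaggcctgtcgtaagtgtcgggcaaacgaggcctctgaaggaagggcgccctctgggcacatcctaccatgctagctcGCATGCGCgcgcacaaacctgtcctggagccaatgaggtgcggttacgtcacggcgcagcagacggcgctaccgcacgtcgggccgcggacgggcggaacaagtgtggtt
Ndufb6: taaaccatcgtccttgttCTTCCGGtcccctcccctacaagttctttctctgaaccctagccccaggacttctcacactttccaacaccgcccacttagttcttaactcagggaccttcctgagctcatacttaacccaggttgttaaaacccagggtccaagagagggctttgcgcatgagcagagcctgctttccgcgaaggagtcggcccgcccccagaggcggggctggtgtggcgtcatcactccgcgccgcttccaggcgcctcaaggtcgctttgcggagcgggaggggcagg
The Cycs window held 1 NRF1 match, the Cox6b1 and Ndufb6 windows 1 GABPA match each, and the Cox6b2 window held none of these letters. RefSeq windows were matched for 67 of the 83 genes, 72 windows in all. Subunit windows on a single chromosome were left out of the match, while the set of all windows kept that chromosome. The NRF1 core was in 13.9% of the subunits' windows, against 2.71% of all 32851 windows. The GABPA core was in 23.6% of them, against 8.86%, and the YY1 core in 12.5%, against 2.75%. None of these letter strings contains another, and a match describes the sequence and not a bound site.

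Most subunits had a lower signal at day 6 than at day 3, in both treatments. With CSA, 53 of the 79 subunits were lower and 1 was higher at day 6 than at day 3, with a median difference of -0.33. Among all 12529 genes tested, 15.8% were lower and 20.2% higher, with a median of 0.08. With DMSO, 54 were lower and 4 higher, with a median of -0.36, against 19.6% of all genes lower and 26.1% higher, with a median of 0.08. The same 47 subunits were lower in both treatments, 88.7% of the CSA list and 87.0% of the DMSO list. The group means in these comparisons share no array, but the calls do not stand apart, because all arrays gave 1 spread per probe set. Over all genes 1487 were lower in both, 74.9% and 60.4% of the lists.

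Signal strength moved with this result. Of the 79 subunits, 56 had a mean log2 signal of 12 or more, as had 1065 genes in all, and bright genes as a class were lower at day 6. Among bright genes 48.3% were lower and 10.5% higher with CSA, and 57.3% lower and 13.4% higher with DMSO, with medians of -0.19 and -0.24. Among the 56 bright subunits 42 were lower in each treatment (75%), with medians of -0.33 and -0.36. Among the 23 dimmer subunits 11 were lower with CSA and 12 with DMSO, against 12.8% and 16.1% of all genes below that level. These shares are not matched in brightness, because 15 of the 23 had a mean log2 signal of 11 to 12. All genes of that range had medians of -0.10 with CSA and -0.09 with DMSO, and the 15 subunits -0.33 and -0.34. For all genes at 7 to 9 the medians were 0.22 and 0.26.

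The count of lower subunits depended on the scaling of the arrays. Quantile normalization brought the median of the bright genes to -0.02 and -0.03 and left 34 subunits lower and 3 higher with CSA (median -0.20) and 30 lower and 9 higher with DMSO (median -0.14). Cyclic loess normalization, which aligns the arrays at each brightness, left 32 lower and 1 higher with CSA (median -0.19) and 31 lower and 9 higher with DMSO (median -0.16). Under all 3 scalings 23 subunits were lower in both treatments: 11 of complex I, 1 of complex II, 4 of complex III, 3 of complex IV, 3 of complex V and cytochrome c. The shares of all genes and of bright genes called after quantile normalization and cyclic loess are not given here. Whether these remaining counts exceed such shares is therefore not shown. As deposited, the median of all tested probe sets was 0.12 higher at day 6 with CSA and 0.10 with DMSO, and -0.03 in both after quantile normalization. After cyclic loess it was -0.015 with CSA and -0.019 with DMSO. The part that brightness, or the higher fibroblast marker signals at day 6, had in the lower subunit signals was not tested beyond these values.

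**Figure D1:**
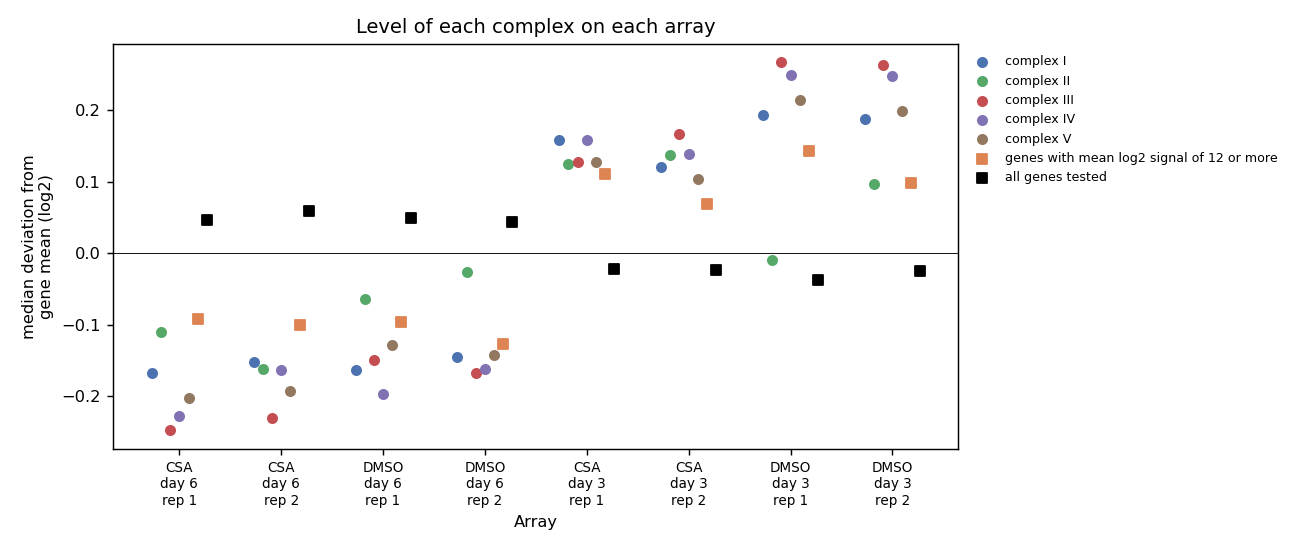
Median log2 deviation from each gene's mean over the 8 arrays, on each array, for complexes I to V (circles), for genes with a mean log2 signal of 12 or more and for all genes tested (squares). The day 6 arrays of complexes I, III, IV and V sat between -0.25 and -0.13 and the day 3 arrays between 0.10 and 0.27. Bright genes moved the same way over a smaller range and all genes the other way.

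**Figure D2:**
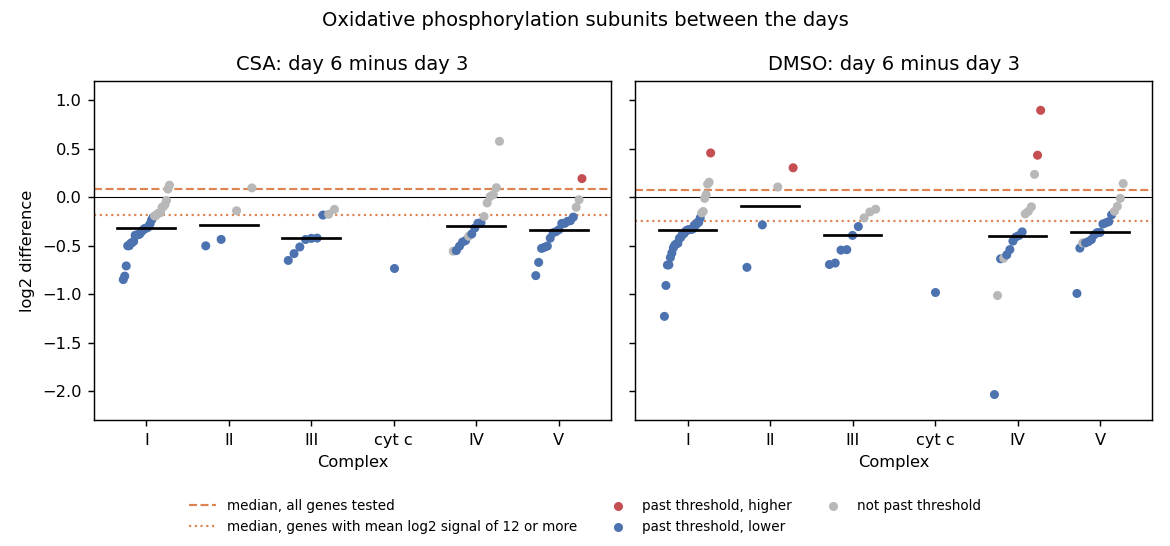
Log2 difference, day 6 minus day 3, of each tested subunit by complex, with CSA on the left and DMSO on the right. Each point is 1 gene, colour gives the limma call at an adjusted p under 0.05, black bars are medians of the complex, and lines mark the medians of all genes and of bright genes. Medians of complexes I, III, IV and V lie between -0.29 and -0.42 in both panels.

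Cytochrome c, encoded by Cycs, had the smallest adjusted p of all subunits between the days in each treatment. Its log2 signals with CSA were 13.31 and 13.31 at day 6, against 14.03 and 14.05 at day 3. With DMSO they were 13.23 and 13.18 at day 6, against 14.14 and 14.22 at day 3. The days did not overlap in either treatment, and the differences were -0.73 ± 0.06 with CSA (0.602-fold, limma adjusted p = 6.07e-06, n = 2 arrays per group) and -0.98 ± 0.06 with DMSO (0.508-fold, limma adjusted p = 3.91e-07). The other 2 tested probe sets of Cycs gave -0.80 and -1.02 with CSA and -1.26 and -1.37 with DMSO.

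Of complex I, the NADH dehydrogenase, 21 of 32 tested subunits were lower at day 6 with CSA and none was higher, with a median of -0.32. With DMSO 25 were lower and 1 higher, with a median of -0.34. Among all genes 15.8% were lower with CSA and 19.6% with DMSO, and among bright genes 48.3% and 57.3%. The same shares stand beside the counts of the other complexes below. The 6 tested core subunits, most of which carry the flavin or iron-sulfur clusters, had 5 lower with CSA and 4 with DMSO. The 26 accessory subunits had 16 and 21 lower.

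Ndufb6, an accessory subunit of the membrane arm, had log2 signals with CSA of 12.65 and 12.73 at day 6, against 13.41 and 13.39 at day 3. With DMSO it had 12.67 and 12.64 at day 6, against 13.56 and 13.57 at day 3. The day 6 arrays were low in both treatments, by -0.71 ± 0.06 (limma adjusted p = 1.02e-05) and -0.91 ± 0.06 (limma adjusted p = 8.24e-07), and its other probe set gave -0.54 and -0.71. Ndufa10, another accessory subunit, had 12.36 and 12.46 at day 6 with CSA, against 13.32 and 13.20 at day 3, and 12.28 and 12.40 at day 6 with DMSO, against 13.04 at day 3 on both arrays. Its difference with CSA, -0.85 ± 0.07 (limma adjusted p = 9.95e-06), was the largest fall of any subunit in that treatment, and with DMSO it was -0.70 ± 0.07.

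Ndufb1, a small accessory subunit, differed by -0.81 ± 0.18 with CSA (limma adjusted p = 0.00618) and -1.23 ± 0.18 with DMSO (limma adjusted p = 0.00027). Its day 6 signals of 7.66 and 8.10 with CSA, and of 7.68 and 7.55 with DMSO, lay below every day 3 signal, which were 8.64 and 8.74 with CSA and 8.87 and 8.81 with DMSO. It was lower under all 3 scalings.

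Ndufa6, an accessory subunit of the LYR protein family, went against most of complex I in DMSO. Its log2 signals with DMSO were 11.82 and 11.95 at day 6, against 11.39 and 11.47 at day 3, a rise of 0.46 (limma adjusted p = 0.000489). With CSA they were 11.71 and 11.78 at day 6 and 11.82 and 11.81 at day 3. The low arrays were those of DMSO at day 3.

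Complex II, succinate dehydrogenase, was split. Sdhd, a membrane anchor, had 11.50 and 11.34 at day 6 with CSA, against 11.87 and 11.85 at day 3 (-0.43, limma adjusted p = 0.00165), and 11.39 and 11.38 at day 6 with DMSO, against 12.04 and 12.17 at day 3 (-0.72, limma adjusted p = 2.78e-05). Sdhb, the iron-sulfur subunit, differed by -0.50 with CSA (limma adjusted p = 0.00013) and -0.28 with DMSO (limma adjusted p = 0.00304). The Sdhb call with DMSO ended after quantile normalization (-0.041, limma adjusted p = 0.624) and cyclic loess (-0.073, limma adjusted p = 0.375), and without the intensity trend (0.055). Sdha, the flavoprotein that binds succinate, rose with DMSO by 0.30 ± 0.07 (limma adjusted p = 0.00346), with 11.89 and 11.88 at day 6 against 11.58 and 11.59 at day 3. Averaging its probe sets gave 0.19 (limma adjusted p = 0.055). With CSA its difference of 0.10 did not pass (limma adjusted p = 0.305).

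Complex III, the cytochrome bc1 complex, had 7 of 9 subunits lower at day 6 with CSA (median -0.42) and 6 with DMSO (median -0.39), and none higher. Uqcrfs1, the Rieske iron-sulfur protein, had 12.34 and 12.23 at day 6 with CSA, against 12.97 and 12.90 at day 3 (-0.65, limma adjusted p = 6.46e-05), and 12.57 and 12.55 at day 6 with DMSO, against 13.18 and 13.04 at day 3 (-0.54, limma adjusted p = 0.000103). Uqcr10, a small subunit, had 11.46 and 11.49 at day 6 with CSA, against 11.96 and 12.01 at day 3, and 11.33 and 11.43 at day 6 with DMSO, against 12.07 and 12.05 at day 3. Its differences were -0.51 and -0.68 (limma adjusted p = 0.000285 and 2.07e-05). Uqcrb, a ubiquinone-binding subunit, differed by -0.18 and -0.30 (limma adjusted p = 0.0187 and 0.000666), but its sign turned after cyclic loess normalization, to 0.11 and 0.073. Its call with CSA also ended without either CSA day 3 array or CSA day 6 replicate 1 (limma adjusted p = 0.0676 to 0.116). Cyc1, cytochrome c1, had no call between the days in either treatment.

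Of the 11 ubiquitous subunits of complex IV, cytochrome c oxidase, 8 were lower at day 6 with CSA and 7 with DMSO. All of them but Cox7c were bright, and among bright genes 48.3% were lower with CSA and 57.3% with DMSO. The DMSO count is near that share and says nothing particular to complex IV. Cox4i1, a regulatory subunit, had 13.52 and 13.59 at day 6 with CSA, against 14.15 and 14.06 at day 3 (-0.55, limma adjusted p = 0.0001), and 13.64 and 13.51 at day 6 with DMSO, against 14.14 and 14.09 at day 3 (-0.54, limma adjusted p = 5.56e-05). Cox5a, which binds a thyroid hormone metabolite, differed by -0.46 and -0.63 (limma adjusted p = 0.000186 and 9.95e-06), and Cox8a, a small membrane subunit, by -0.51 and -0.36 (limma adjusted p = 0.000161 and 0.000924). The Cox8a call with DMSO ended after quantile normalization (-0.12, limma adjusted p = 0.137). Cox4i1 and Cox5a were lower under all 3 scalings, as was Ndufa4. Ndufa4, first described in complex I and now counted as a subunit of complex IV, had 13.004 and 13.03 at day 6 with CSA, against 13.49 and 13.43 at day 3, and 12.99 and 12.93 at day 6 with DMSO, against 13.60 and 13.50 at day 3. These were differences of -0.45 (limma adjusted p = 0.000282) and -0.59 (limma adjusted p = 1.95e-05). Cox6a1 did not pass in either treatment, and in DMSO it turned to 0.20 after cyclic loess normalization (limma adjusted p = 0.0261). Cox7a2l, which takes part in joining complexes III and IV into supercomplexes, was higher at day 6 with DMSO by 0.43 on its brightest probe set (limma adjusted p = 0.000991), which is of a kind that can read several transcripts. Its other 2 probe sets gave 0.069 and 0.18, neither past the threshold (limma adjusted p = 0.493 and 0.119).

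Of complex V, 14 of 17 subunits were lower at day 6 with CSA and 1 was higher (median -0.33), and 12 were lower with DMSO (median -0.36). The c ring, the rotor of the membrane part, is built from 1 mature protein that 3 genes encode, each with its own import sequence. Atp5g1 had 11.20 and 11.29 at day 6 with CSA, against 11.87 and 11.96 at day 3, and 11.02 and 11.09 at day 6 with DMSO, against 12.02 and 12.07 at day 3. It differed by -0.67 ± 0.07 (limma adjusted p = 7.35e-05) and -0.99 ± 0.07 (0.503-fold, limma adjusted p = 2.33e-06), with no overlap of the days. Atp5g2 had 12.40 to 12.46 on all day 6 arrays and 12.42 to 12.50 on all day 3 arrays, and its differences of -0.03 and -0.01 did not pass. Atp5g2 was higher by 0.20 in DMSO after quantile normalization (limma adjusted p = 0.0175).

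Atp5g3 differed by -0.24 and -0.28 (limma adjusted p = 0.0178 and 0.0063), and turned to 0.020 and 0.057 after cyclic loess normalization. The first call also ended without CSA day 3 replicate 1 or either CSA day 6 array (limma adjusted p up to 0.142), and the second without DMSO day 3 replicate 1 (0.0537). The 3 genes of the ring thus gave unlike values, with Atp5g1 alone lower under all 3 scalings. Atp5pb, subunit b of the peripheral stalk, differed by -0.50 (limma adjusted p = 0.000196) and -0.47 (limma adjusted p = 0.000163), and the call with DMSO ended after cyclic loess (-0.16, limma adjusted p = 0.0546). Atp5a1, the alpha subunit of the catalytic head, rose with CSA by 0.19 (limma adjusted p = 0.0373), with 13.16 and 13.19 at day 6 against 13.01 and 12.95 at day 3. The mean of its probe sets gave -0.092 instead, and the call ended when any of the 4 CSA arrays was left out, with limma adjusted p-values of 0.0832 to 0.2.

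Between the days, other probe sets of the same genes gave the same calls in most cases. Of 54 subunits called with CSA, 34 had another tested probe set, and for 26 of them another was past the threshold in the same direction. With DMSO this held for 26 of 33. For calls of CSA against DMSO it held less often, for 2 of 5 at day 6, 1 of 3 at day 3 and 2 of 7 over both days. No subunit had another probe set called in the opposite direction. Leaving out 1 array in turn gave 40 to 54 calls with CSA and 53 to 58 with DMSO.

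CSA changed few subunits. At day 6, 8 of 79 were lower and 1 was higher than with DMSO, 10.1% and 1.27%, against 6.11% of all genes lower and 6.41% higher, and the median difference was -0.02. At day 3, 4 were lower and 3 higher, 5.06% and 3.8%, against 5.52% and 7.14% of all genes, and the median was -0.05. Of the 56 bright subunits, 10.7% were lower and 1.79% higher at day 6, and 3.57% lower and 3.57% higher at day 3. These shares are not matched in brightness, because those of all bright genes are not given for CSA against DMSO. Nothing particular to the set is read from them. The CSA effects of the 2 days differed for 2 subunits, both more negative at day 6, and for none in the other direction, against 3.43% and 2.36% of all genes. None of the bright subunits was among them.

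**Figure D3:**
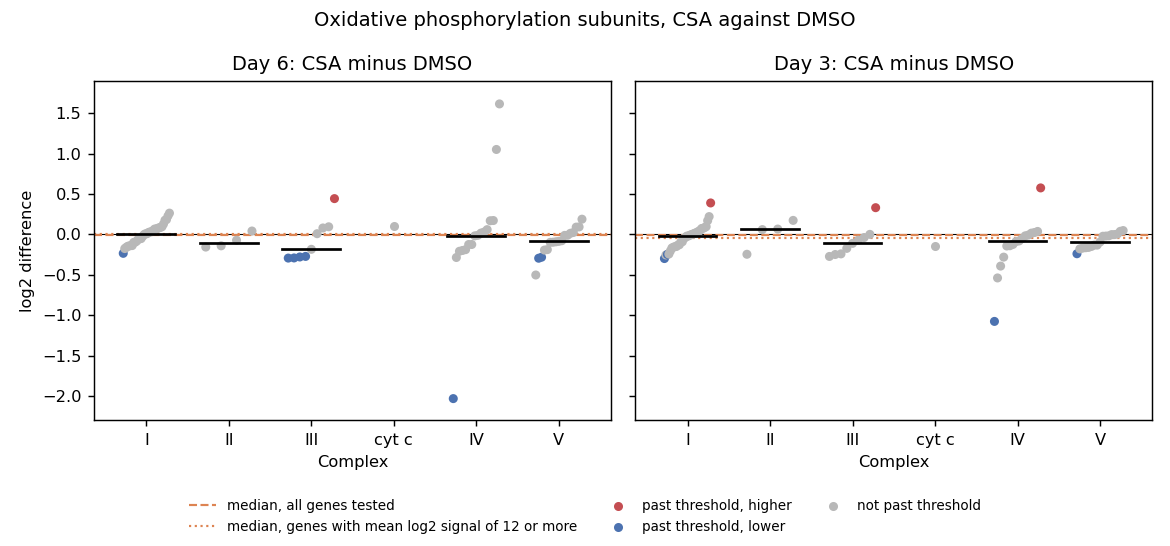
Log2 difference, CSA minus DMSO, of each tested subunit by complex, at day 6 on the left and day 3 on the right, with colours, bars and lines as in the plot of the days. Most points lie near 0. Cox6b2 is the low point of complex IV at both days, and the low calls of complex III at day 6 lie between -0.27 and -0.29.

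Cox6b2, the testis form of a complex IV subunit that faces the intermembrane space, was the exception in size. Its log2 signals at day 6 were 8.886 and 9.0003 with CSA, against 10.98 and 10.97 with DMSO. At day 3 they were 8.99 and 9.01 with CSA, against 10.07 and 10.09 with DMSO. The CSA arrays stood near 9 at both days, and the DMSO arrays were higher at both days and highest at day 6.

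The difference was -2.03 ± 0.10 at day 6 (0.244-fold, limma adjusted p = 2.28e-06) and -1.08 ± 0.10 at day 3 (0.474-fold, limma adjusted p = 0.000116). The change between the days was -0.06 with CSA (limma adjusted p = 0.703) and 0.90 ± 0.10 with DMSO (1.86-fold, limma adjusted p = 3.3e-05). The CSA effect at day 6 differed from that at day 3 by -0.96 ± 0.14 (limma adjusted p = 0.00448, and 0.1 without the intensity trend). Its calls with CSA at each day and between the days with DMSO passed in all 19 other settings. At day 6 the difference lay between -2.12 and -1.96 over them and at day 3 between -1.10 and -1.03.

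Cox6b1, the ubiquitous partner of Cox6b2, had 13.52 and 13.62 with CSA at day 6, against 13.53 and 13.57 with DMSO, and 13.86 and 13.81 with CSA at day 3, against 13.95 and 13.97 with DMSO. Its CSA differences of 0.02 and -0.12 did not pass (limma adjusted p = 0.906 and 0.227). Between the days it was lower in both treatments, by -0.27 and -0.41 (limma adjusted p = 0.00504 and 0.000195). Both calls ended after quantile normalization (-0.053 and -0.12, limma adjusted p = 0.558 and 0.143) and cyclic loess (-0.020 and -0.096, limma adjusted p = 0.833 and 0.199). The first of these calls ended without CSA day 3 replicate 1, with a limma adjusted p of 0.0522.

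None of 6 male germ cell markers (Ddx4, Dazl, Prm1, Tnp1, Acrv1, Sycp3) passed the filter. Their summed log2 signal was 6.98 to 7.33 with CSA and 5.96 to 7.41 with DMSO at day 6, and 6.60 to 7.09 with CSA and 6.97 to 7.25 with DMSO at day 3, so it did not follow Cox6b2. None of these markers was at 0 as a group mean, and Acrv1 alone reached the filter level in a group, at 5.62 with CSA at day 6. The summed signals of epithelial, of pluripotency and of fibroblast markers did move with Cox6b2 at day 6. Such sums follow mainly their brightest members, Krt8, Pou5f1 and Col1a2, and Pou5f1 is Oct4, which the transgenes also carry. The epithelial and pluripotency sums were 14.52 to 14.56 and 9.95 to 10.07 with CSA, against 14.99 to 15.09 and 10.66 to 10.94 with DMSO. The fibroblast sum was 13.95 with CSA, against 14.37 with DMSO. At day 3 the epithelial and pluripotency sums were 14.60 to 14.61 and 9.80 to 10.17 with CSA, against 14.26 to 14.33 and 9.64 to 9.77 with DMSO, the opposite order. The fibroblast sum was in that opposite order too, at 12.56 to 12.59 with CSA, against 12.16 to 12.26 with DMSO. Single markers went against their sums. At day 6 these were Zfp42 (5.95 with CSA, 4.65 with DMSO) and Krt18 (9.88 and 9.49). At day 3 they were Nanog (1.51 with CSA, 4.37 with DMSO), Utf1 (5.75 and 7.08), Epcam (8.68 and 9.04) and Krt18 (7.44 and 7.91). The part of these markers in the Cox6b2 result was not tested.

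**Figure D4:**
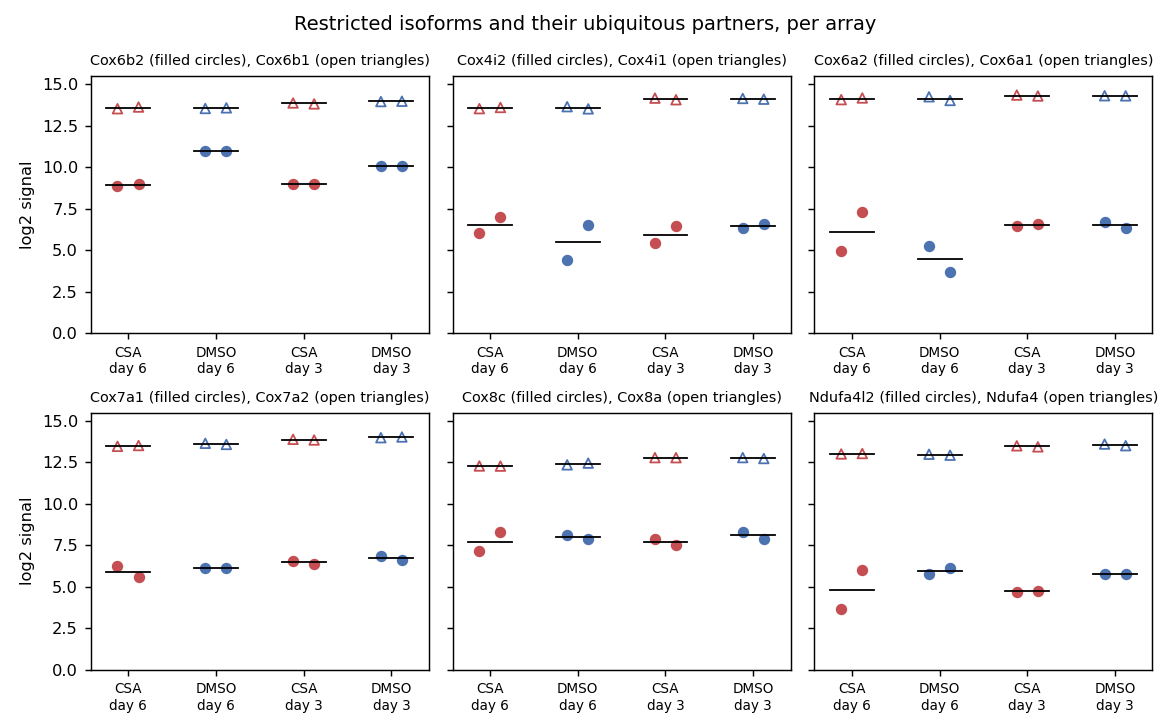
Log2 signal on each array of 6 restricted isoforms (filled circles) and their ubiquitous partners (open triangles), with bars at group means, for CSA and DMSO at day 6 and then at day 3. Cox6b2 is the only restricted form shown whose CSA and DMSO arrays are apart at both days with a limma call. Vertical distances between the genes of a panel are not levels that can be compared.

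The other restricted isoforms were dim and varied between arrays. Cox4i2, a form induced at low oxygen, had 6.04 and 6.98 with CSA at day 6, against 4.41 and 6.50 with DMSO, and 5.44 and 6.43 with CSA at day 3, against 6.35 and 6.59 with DMSO. Cox6a2, the heart and muscle form, had 4.92 and 7.27 with CSA at day 6, against 5.26 and 3.69 with DMSO, and 6.43 and 6.56 with CSA at day 3, against 6.69 and 6.33 with DMSO. Neither had a call between treatments, with Cox6a2 at 1.62 ± 0.74 at day 6 (limma adjusted p = 0.215). Values this imprecise do not show that the treatments were alike. Cox6a2 was lower at day 6 in DMSO by -2.04 ± 0.74 (limma adjusted p = 0.047), a call that leaving out any of 5 arrays ended, with limma adjusted p-values of 0.0664 to 0.279.

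Cox7a1, another muscle form, lay between 5.58 and 6.88 over the 8 arrays, and Cox8c, a testis form, between 7.14 and 8.31. Neither had a call in any comparison. Ndufa4l2, a form induced at low oxygen, was below the filter with 3.64 and 6.01 with CSA at day 6, against 5.75 and 6.12 with DMSO, and 4.71 and 4.73 with CSA at day 3, against 5.76 and 5.78 with DMSO. Cox8b, a muscle form, and Cox7b2, a testis form, were also untested, with signals of 1.40 to 6.19 and 0.00 to 4.67. Of 7 striated muscle markers, 3 passed the filter, and in each group 3 or 4 reached the filter level.

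At day 6, 4 of the 9 subunits of complex III were lower with CSA and 1 was higher. Among all genes 6.11% were lower and 6.41% higher. Complex III was singled out because of these calls, and the 4 lower ones were fragile, as given below. Cyc1, cytochrome c1, had 12.10 and 12.03 with CSA, against 12.34 and 12.38 with DMSO (-0.29 ± 0.07, limma adjusted p = 0.0289). Uqcrfs1, the Rieske protein, had 12.34 and 12.23 with CSA, against 12.57 and 12.55 with DMSO (-0.28 ± 0.07, limma adjusted p = 0.0304). Both are redox subunits, and in both the arrays of the 2 treatments did not overlap.

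The core proteins of the complex, relatives of the mitochondrial processing peptidase, moved alike. Uqcrc1 had 12.35 and 12.56 with CSA, against 12.71 and 12.78 with DMSO (-0.29 ± 0.08, limma adjusted p = 0.0359). Uqcrc2 had 12.43 and 12.40 with CSA, against 12.68 and 12.70 with DMSO (-0.27, limma adjusted p = 0.0212). Each of these 4 calls ended without either DMSO day 6 array. Without DMSO day 6 replicate 1 the limma adjusted p was 0.0985 for Uqcrc1, 0.0913 for Uqcrc2, 0.146 for Uqcrfs1 and 0.101 for Cyc1. Without DMSO day 6 replicate 2 it was 0.203, 0.125, 0.123 and 0.16, and without the intensity trend 0.222, 0.18, 0.206 and 0.191. The calls also ended without CSA day 6 replicate 1 for Uqcrc1 (0.194), Uqcrc2 (0.057) and Cyc1 (0.0578), without its replicate 2 for Uqcrc2 (0.094), Uqcrfs1 (0.167) and Cyc1 (0.142), and without either CSA day 3 array for Uqcrc1 (0.0574 and 0.0575) and Uqcrfs1 (0.0521 and 0.0519), all limma adjusted p-values. Over both days Cyc1 was lower by -0.27 ± 0.05 (limma adjusted p = 0.00569), Uqcrc1 by -0.27 ± 0.05 (limma adjusted p = 0.00686) and Uqcrfs1 by -0.23 (limma adjusted p = 0.0116, and 0.0585 without CSA day 3 replicate 2).

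Uqcrq, a small ubiquinone-binding subunit, was higher with CSA at both days on its bright probe set. It had 12.32 and 12.31 with CSA at day 6, against 11.82 and 11.91 with DMSO, and 12.93 and 12.85 with CSA at day 3, against 12.60 and 12.52 with DMSO. The differences were 0.44 ± 0.07 (limma adjusted p = 0.00189) and 0.33 ± 0.07 (limma adjusted p = 0.0103, and 0.101 without CSA day 3 replicate 1 or 0.0593 without DMSO day 3 replicate 2). This probe set is of the kind that can read more than 1 transcript. The other tested probe set of Uqcrq, with a mean log2 signal of 6.36, gave -0.72 and -0.18, neither past the threshold.

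In complex V the lower calls at day 6 were Atp5d, the delta subunit of the catalytic head, and Atp5o, the stalk protein OSCP. Atp5d had 13.35 and 13.32 with CSA, against 13.61 and 13.63 with DMSO (-0.28, limma adjusted p = 0.0127), and Atp5o had 12.66 and 12.56 with CSA, against 12.88 and 12.93 with DMSO (-0.29, limma adjusted p = 0.0323). Ndufv1, the NADH-binding core subunit of complex I, had 11.68 and 11.67 with CSA, against 11.94 and 11.88 with DMSO (-0.23, limma adjusted p = 0.0463). In all 3 the treatments did not overlap. The calls ended when single arrays were left out, any of 3 for Atp5d (limma adjusted p = 0.0649 to 0.0924) and any of 6 for Atp5o (0.0559 to 0.173) and Ndufv1 (0.0802 to 0.229).

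At day 3, Cox7a2l was higher with CSA, with 12.67 and 12.68, against 12.17 and 12.02 with DMSO (0.58 ± 0.08, 1.49-fold, limma adjusted p = 0.00109, and 0.0706 without the intensity trend). Its other 2 probe sets gave 0.30 and 0.44, and at day 6 its difference of 0.17 did not pass (limma adjusted p = 0.217). Ndufa6 was higher with CSA at day 3, with 11.82 and 11.81, against 11.39 and 11.47 with DMSO (0.39 ± 0.07, limma adjusted p = 0.0075). At day 6 it had 11.71 and 11.78 with CSA, against 11.82 and 11.95 with DMSO, and did not pass (-0.14, limma adjusted p = 0.279). The CSA effect on Ndufa6 at day 6 was thus 0.53 ± 0.11 lower than at day 3 (difference -0.53, limma adjusted p = 0.0185).

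The Ndufa6 calls were fragile. The day 3 call had limma adjusted p-values of 0.0596 without CSA day 3 replicate 1 and 0.0568 without replicate 2. The difference of effects had 0.0818 and 0.073 without those arrays, 0.0851 without DMSO day 6 replicate 2, 0.0514 without CSA day 6 replicate 1 and 0.18 without the intensity trend. Lower at day 3 were, beside Cox6b2, Ndufb3, an accessory subunit of complex I (-0.30, limma adjusted p = 0.0288), Ndufa9, which lies near the ubiquinone site (-0.25, limma adjusted p = 0.0398), and Atp5a1 (-0.24, limma adjusted p = 0.0354). Leaving out any of 4, 6 and 4 arrays ended these calls, with limma adjusted p-values up to 0.178, 0.205 and 0.211.

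Over both days, 9 subunits were lower with CSA and 3 higher, against 8.87% and 9.68% of all genes, with a median of -0.04. The lower ones were Cox6b2, Cyc1, Uqcrc1, Uqcrfs1, Ndufa9, Atp5d, Atp5pb, Atp5a1 and Cox7a2, and the higher ones Uqcrq, Cox7a2l and Ndufb9. Atp5a1 differed by -0.21 on its brightest probe set (limma adjusted p = 0.00828, and 0.128 without the intensity trend). Its other 2 probe sets gave 0.10 and -0.016, and averaging the probe sets gave -0.042 (limma adjusted p = 0.636). Also lower was Cox7a2, the ubiquitous partner of Cox7a1 (-0.13, limma adjusted p = 0.048, and 0.0588 to 0.166 without any 1 of the 8 arrays). Ndufb9, an accessory subunit of complex I, was higher by 0.16 (limma adjusted p = 0.0471), and leaving out any of 7 arrays ended its call, as any of 7 did for Atp5d, 6 for Atp5pb and 3 for Ndufa9. Cox6b2 was the largest of them at -1.55. Without CSA day 3 replicate 2 there were 6 calls, and without DMSO day 6 replicate 1 there were 7.

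Lists of genes that serve the chain were counted in the same way between the days, and the shares of all genes are 15.8% lower and 20.2% higher with CSA and 19.6% lower and 26.1% higher with DMSO. Of 44 tested assembly factors, 20 were lower and 2 higher at day 6 with CSA (median -0.29), and 19 lower and 1 higher with DMSO (median -0.28). After quantile normalization 22 were lower with CSA (median -0.39) and 26 with DMSO (median -0.42), so here the count did not fall with that scaling. The shares of all genes called after that scaling are not given here. Cox19, a copper chaperone for complex IV, had mean log2 signals of 10.78 at day 6 against 11.72 at day 3 with CSA, and 11.04 against 12.15 with DMSO. It differed by -0.93 ± 0.11 (limma adjusted p = 9.01e-05) and -1.11 ± 0.11 (limma adjusted p = 1.21e-05). Ndufaf4, an assembly factor of complex I, differed by -0.77 (limma adjusted p = 0.000252) and -1.11 (limma adjusted p = 9.27e-06).

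Of 18 tested regulators of mitochondrial biogenesis, 5 were lower and 1 higher with CSA, and 3 lower and 2 higher with DMSO. The DMSO counts are not above the shares of all genes. Esrra, a nuclear receptor that activates respiratory genes, had mean log2 signals of 9.70 at day 6 against 10.6 at day 3 with CSA and 9.25 against 10.5 with DMSO. It differed by -0.92 ± 0.13 (limma adjusted p = 0.000433) and -1.21 ± 0.13 (limma adjusted p = 3.24e-05). Its coactivator Ppargc1b was lower with CSA by -1.21 ± 0.24 (limma adjusted p = 0.00273). Nrip1, a corepressor of such receptors, was higher with DMSO by 0.76 ± 0.12 (limma adjusted p = 0.00052).

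Of 20 tested genes of the citric acid cycle and pyruvate entry, 11 were lower and 1 higher at day 6 with CSA, and 10 lower and 3 higher with DMSO. Idh3a, of isocitrate dehydrogenase, differed by -0.74 and -0.71, and Mdh2, malate dehydrogenase, by -0.55 and -0.57 (limma adjusted p at most 8.24e-05 in these 4 tests). Averaging the probe sets of Idh3a ended both of its calls (limma adjusted p = 0.221 and 0.226). The gene that rose in both was Pdk1, a kinase that inhibits pyruvate dehydrogenase, by 0.84 ± 0.11 with CSA (limma adjusted p = 0.000169) and 1.46 ± 0.11 with DMSO (limma adjusted p = 1.87e-06). Of 9 tested carriers and ATP synthase regulators, 4 were lower with CSA and 7 with DMSO, and none was higher. They included the outer membrane channel Vdac2, at -0.44 and -0.51.

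With CSA against DMSO, 5 of the 20 citric acid cycle genes were lower and 1 higher at day 6, against 6.11% and 6.41% of all genes, and none was called at day 3, where 4 had an unadjusted limma p under 0.05. Suclg2, of succinyl-CoA ligase, had a mean log2 signal of 11.3 with CSA at day 6, against 11.8 with DMSO (-0.51 ± 0.07, limma adjusted p = 0.00152). Idh2, the NADP-dependent isocitrate dehydrogenase, had 11.50 against 12.002 (-0.50 ± 0.08, limma adjusted p = 0.00226), and Pdk1 had 10.0 against 10.7 (-0.65 ± 0.11, limma adjusted p = 0.00302). For these 3 the CSA effect at day 6 was below that at day 3, by -0.53, -0.50 and -0.62 (limma adjusted p = 0.0193, 0.0314 and 0.043). The calls of that difference ended when any of 4, 6 and 7 arrays was left out, with limma adjusted p-values up to 0.0827, 0.125 and 0.153.

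Among assembly factors, 2 were lower with CSA at day 6, and 6 lower and 1 higher at day 3, of 44 tested. Among all genes 6.11% were lower at day 6, and 5.52% lower and 7.14% higher at day 3. Ndufaf6, needed for the early assembly of complex I, had mean log2 signals of 8.84 with CSA at day 6, against 10.1 with DMSO, and 9.53 with CSA at day 3, against 10.2 with DMSO. It differed by -1.22 ± 0.16 (limma adjusted p = 0.000784) and -0.69 ± 0.16 (limma adjusted p = 0.018, and 0.118 without DMSO day 3 replicate 1 or 0.144 without CSA day 3 replicate 2). Nubpl, which delivers iron-sulfur clusters to complex I, was lower at day 6 by -0.70 ± 0.14 (limma adjusted p = 0.0106, and 0.107 without DMSO day 6 replicate 2 or 0.0576 without CSA day 6 replicate 1).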

How the data were processed

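RNA of 8 cultures was hybridised to Affymetrix 3' arrays. The authors deposited log2 values for 45037 probe sets on each array, made with MAS5 per the submitters' processing notes. The version and scaling target are not named in the sources used. Deposited log2 values had not been quantile normalized, as array medians ran from 6.15 to 6.53. They were used as they stood, since the plan's pseudocount for linear values did not apply. Without scan dates in the sources used, array batches could not be tested.

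Gene names came from the platform annotation: 34945 probe sets had 1 symbol, 932 several and 9160 none, and only the first kind was named. The 27022 probe sets whose mean log2 signal reached the 40th percentile (5.37) entered the tests and represented 12529 genes, each by its brightest probe set. limma 3.58.1 in R 4.3.3 fitted 1 mean per group to all 8 arrays (4 residual degrees of freedom) with an intensity trend. Tests were two-sided and adjusted by Benjamini-Hochberg over all probe sets in the fit, and calls needed an adjusted p under 0.05. The fit was tested on simulated data.

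The subunits, lists and settings were chosen with earlier results of these data known. Named genes are the isoform pairs, the up to 8 subunits per comparison and direction with the smallest p past the threshold, the brightest and the most changed subunit of each complex, and up to 3 genes per pathway list and comparison. Alternatives were a replicate block, other normalizations, filters, floors and probe set rules, no trend, and leaving out each array. Cyclic loess was added after seeing the data. Same-numbered arrays were not taken as pairs.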

Additional observations from a re-analysis of the deposited data

Results flagged for a closer look

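A difference of the CSA effect between the days was called for 2 subunits. For Cox6b2 the CSA effect at day 6 minus that at day 3 was -0.96, from effects of -2.03 at day 6 and -1.08 at day 3, and for Ndufa6 it was -0.53, from effects of -0.14 at day 6 and 0.39 at day 3. The limma interaction test gave adjusted p-values of 0.00448 for Cox6b2 and 0.0185 for Ndufa6. Without the intensity trend they were 0.1 and 0.18. Groups of 2 arrays were too small for single arrays to be tested as outliers.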

How the results depend on the processing

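Counts are of the 79 tested subunits past the threshold. Without the intensity trend in limma, 31 were called between the days with CSA, 1 with CSA at day 3, 1 at day 6, 2 over both days and 0 for the difference of the CSA effects (5 at an unadjusted p under 0.05), against 54, 7, 9, 12 and 2 with it. The CSA calls left without the trend were Cox6b2 at each day and over both days, and Uqcrq over both days. Cyclic loess normalization, added after seeing the data, gave 33 between the days with CSA. For the difference of the effects, quantile normalization, cyclic loess, a filter at the 60th percentile and averaging each gene's probe sets gave 4 each. Leaving out 1 array gave 2 to 9 calls for CSA at day 3, 2 to 9 at day 6, 1 to 3 for the difference of the effects, 40 to 54 and 53 to 58 between the days with CSA and with DMSO, and 6 to 13 over both days. At day 3 it was 4 without DMSO day 3 replicate 2, 2 without CSA day 3 replicate 1 and 3 without its replicate 2. At day 6 it was 5 without either CSA day 3 array, 2 without either DMSO day 6 array and 3 without CSA day 6 replicate 2. Over both days it was 6 without CSA day 3 replicate 2 and 7 without DMSO day 6 replicate 1, and for the difference of the effects 1 without either CSA day 3 array or DMSO day 6 replicate 2.

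Over the tested probe sets, deviations of same-numbered arrays were nearly uncorrelated (correlations of -0.003 to 0.034). Such a correlation cannot exclude a batch that touches some of the probe sets, so whether the numbers mark pairs is not known. With the replicate block the counts between the days were 57 with CSA and 60 with DMSO, against 54 and 58 without it. For CSA at day 3, day 6 and over both days they were 8, 12 and 18, against 7, 9 and 12. For the difference of the effects the count was 2 either way. These signs turned: Atp5a1 between the days with CSA, to -0.092 with the mean of probe sets; Atp5d between the days with DMSO, to 0.021 after quantile normalization and 0.044 after cyclic loess; and Atp5g2 with DMSO, to 0.20 after quantile normalization. Atp5b turned between the days with DMSO, to 0.092 after quantile normalization and 0.13 after cyclic loess. Atp5c1 turned between the days with CSA and DMSO, to 0.39 and 0.48 without probe sets that can read several transcripts and to 0.071 and 0.048 with the mean of its probe sets. After cyclic loess Atp5h turned to 0.0040 with CSA, Atp5g3 turned to 0.020 with CSA and 0.057 with DMSO, Uqcrb to 0.11 and 0.073, and Cox6a1 to 0.20 with DMSO. Without probe sets that can read several transcripts, Uqcrq gave -0.72 for CSA at day 6, -0.18 at day 3, -0.45 over both days and 0.12 between the days with DMSO. With the mean of its probe sets it gave -0.14 at day 6 and -0.031 over both days, and Acad9 gave -0.17 for the difference of the effects. The cause was not tested in these cases. Values under alternatives were labelled for the genes chosen for naming, for the counts of calls and for the medians of sets. Of these, 2991 were labelled unchanged, and 33 counts or medians moved. Among values of single genes, 315 lost the threshold and 12 gained it. The unchanged label includes genes whose sign turned with no call in either setting, so it does not mean that every direction was kept. Dim isoforms near background limit what can be seen of Cox4i2, Cox6a2, Cox7a1 and Ndufa4l2.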

Other observations

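Carriers not described above included Slc25a31, the germline form of the ADP/ATP carrier, whose mean log2 signal at day 6 was 5.94 with CSA and 4.59 with DMSO, against 7.36 with CSA and 7.46 with DMSO at day 3. It was lower at day 6 by -1.43 ± 0.37 with CSA (limma adjusted p = 0.0132, and 0.0571 or 0.0873 without CSA day 3 replicate 1 or 2) and -2.87 ± 0.37 with DMSO (limma adjusted p = 0.000101). Its higher signal with CSA at day 6, 1.35 ± 0.37 (limma adjusted p = 0.0433), ended as a call when any of 7 arrays was left out and after quantile normalization (limma adjusted p = 0.0696). Of the widely expressed forms, Slc25a4 was lower at day 6 with DMSO by -0.39 (limma adjusted p = 0.000297), and Slc25a5 by -0.31 with CSA (limma adjusted p = 0.0032) and -0.31 with DMSO (limma adjusted p = 0.002). After cyclic loess the calls of Slc25a4 with DMSO (-0.081, limma adjusted p = 0.222) and Slc25a5 with CSA (-0.068, limma adjusted p = 0.432) ended.

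Acad9, an assembly factor of complex I, was lower at day 6 with DMSO by -1.12 ± 0.10 (limma adjusted p = 5.85e-06), and its change differed between the treatments by 0.54 (limma adjusted p = 0.0499), which leaving out any 1 array ended. Averaging its probe sets gave -0.35 with DMSO (limma adjusted p = 0.0844). Tfb2m, a factor of mitochondrial transcription, was lower at day 6 by -0.60 with CSA (limma adjusted p = 0.00459) and -0.56 with DMSO (limma adjusted p = 0.00483). Polrmt, the mitochondrial RNA polymerase, was lower with CSA at day 3 by -0.48 ± 0.12 (limma adjusted p = 0.0281, and up to 0.207 without 1 array).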
